A study of Mus musculus with 34 samples.

Results

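The data cover 10 genes of the microsomal oxidation system of mouse liver: the cytochrome P450 genes Cyp2d9, Cyp2d10, Cyp2d22, Cyp2d26, Cyp2j5, Cyp2j6, Cyp3a11, Cyp3a13 and Cyp3a25, and Por, the gene of the reductase that serves them. They were chosen by symbol, with earlier results of these data known. All 10 were found in each of the 3 deposited tables, among 46528 genes in the table of mixed-strain tumors, 16140 genes in the table of FVB tumors and 14074 genes in the table of Rag1-/- livers. All 10 also passed the filter on low values that left 17552 genes of the mixed-strain table.

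RNA sequencing was done on 34 libraries of mice in which withdrawal of doxycycline turns on a MYC transgene in the liver (LAP-tta;TRE-MYC), so that tumors form. The protein made from Arid1a belongs to the SWI/SNF complexes, which move nucleosomes. The mixed-strain set, labelled as a mix of C57/B6, 129 and FVB, held 8 Het tumors (Arid1a fl/+ with Alb-cre, a Cre made in hepatocytes) and 8 WT tumors (Arid1a fl/fl without Cre), all from mice of about 90 days. The FVB set held 4 Homo tumors (Arid1a fl/fl with Alb-cre) at about 100 days, 4 Het tumors (fl/+ with Alb-cre) at about 70 days and 4 WT tumors (fl/fl without Cre) at about 55 days. Tumors were taken at death, so age, Cre and Arid1a genotype cannot be told apart in FVB, and Cre and genotype cannot be told apart in the mixed strain. The third set held livers (tissue field: liver, although the source field reads as tumor) of Rag1-/- mice on FVB, which lack mature lymphocytes, with the MYC transgenes and WT Arid1a, at about 42 days and 14 days after injection of an adenovirus. That virus carried human ARID1A in 3 livers (ad-ARID1A) and Cre in 3 livers (ad-Cre), so added ARID1A and the absence of viral Cre cannot be told apart. The labels do not say that each library is a separate mouse, so p-values measure the spread between libraries.

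Cytochromes P450 are heme enzymes of the endoplasmic reticulum that insert an oxygen atom into drugs, steroids and fatty acids. Each turn of the cycle needs electrons from NADPH, which Por passes on, so that all microsomal P450s depend on this single flavoprotein, with cytochrome b5 as a helper for some. Cyp3a enzymes oxidize steroids, bile acids and many drugs under control of the xenobiotic receptor PXR. Cyp2j enzymes epoxidize arachidonic acid, and the Cyp2d group is a tandem gene array that has expanded in the mouse. In normal liver most of these P450 genes mark mature hepatocytes, and several are sex-biased through the rhythm of growth hormone release.

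Levels are given in CPM, reads scaled to the size of the library, or as log2 CPM. The libraries held 2.28 to 5.28 M reads for the mixed strain, 6.63 to 12.02 M for FVB tumors and 8.72 to 10.61 M for Rag1-/- livers. Hepatocyte markers were present in every library, although Alb, the albumin gene, had a median of 551.9 CPM in mixed-strain Het and 684.9 CPM in WT tumors, and 1704 CPM in FVB Homo, 1426 CPM in FVB Het and 3003 CPM in FVB WT tumors, against 40910 CPM in ad-ARID1A and 43540 CPM in ad-Cre livers. In bulk tissue, fewer hepatocytes and less RNA per hepatocyte cannot be told apart. Arid1a itself lay between 249.7 and 329.8 CPM in mixed-strain Het and between 314.2 and 490.1 CPM in WT tumors, with Het 6 as the one Het tumor inside the WT range. Its FVB ranges also overlapped (172.4 to 256.0 in Homo, 184.8 to 292.0 in Het and 212.3 to 310.8 in WT). Mixed-strain WT 2 and Het 5, and FVB WT 1 and WT 2, stood apart on principal components, and the counts of members are also given without them. Mixed-strain Het 6 lay farther out on the first component (-74.3) than WT 2 (63.5) and was left out singly. The labels give no sex. All 4 Y-linked genes examined (Ddx3y, Kdm5d, Uty and Eif2s3y) were detected in all 34 libraries, with Kdm5d at 3.47 CPM in mixed-strain Het 4 and 2.66 CPM in Het 6 against at least 43.3 CPM in WT tumors. Xist was highest in FVB Het 4, at 50.9 CPM.

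On GRCm38 the 4 Cyp2d genes lie together on chromosome 15: Cyp2d22 at 82370527 to 82380260 (minus strand), Cyp2d10 at 82402846 to 82407195 (minus), Cyp2d9 at 82433437 to 82456845 (plus) and Cyp2d26 at 82790101 to 82794294 (minus). On the minus strand of chromosome 4 are Cyp2j6 (96516138 to 96553661) and Cyp2j5 (96628773 to 96664154). Chromosome 5 holds Por at 135670033 to 135735326 (plus), Cyp3a13 at 137892932 to 137921619 (minus), Cyp3a11 at 145854426 to 145879964 (minus) and Cyp3a25 at 145977194 to 146009618 (minus). Counts of close copies are uncertain. Of all 50-base stretches of the transcripts, 35.8% in Cyp2d10, 26.8% in Cyp3a25 and 21.8% in Cyp2d9 also occur in transcripts of other genes, foremost Cyp2d11, Cyp3a59 and Cyp2d12. The share was 9.5% in Cyp2d26, 6.7% in Cyp3a11, 4.1% in Cyp2d22, 0.4% in Cyp2j6 and 0.2% in Cyp2j5, and it was 0% in Cyp3a13 and Por. Cyp2d9 and Cyp2d10 also overlap predicted genes on the same strand over 9.3% and 3.6% of their exon bases.

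RefSeq promoters (GRCm38.p6, 250 bases before to 50 after the annotated start) were available for 9 of the 10 genes. The start is that of RefSeq, while the gene spans above are those of GENCODE. For Cyp2d9 and Por the window lies inside the span given above and not at its edge. They are shown for the near-copies Cyp2d9 and Cyp2d10, whose values ran together, for Cyp2j5 and Cyp3a11, which had the largest FVB differences, and for Por, whose differences in the tumors were smaller than those of most P450 genes. Capitals mark TATAA with its preceding T (Cyp2d9, Cyp2d10 and Cyp2j5, where TATAA is read on both strands and the matches overlap), AGGTCA (a nuclear receptor half-site, in Cyp2j5 and Cyp3a11), CAAAGTCCA (an HNF4-type site, in Cyp3a11) and GGGCGG or its reverse complement CCGCCC (a GC box, in Por). The TATAA and GC box matches of Cyp3a11 are left in lower case.
Cyp2d9 promoter, chr15:82452127-82452426, plus strand: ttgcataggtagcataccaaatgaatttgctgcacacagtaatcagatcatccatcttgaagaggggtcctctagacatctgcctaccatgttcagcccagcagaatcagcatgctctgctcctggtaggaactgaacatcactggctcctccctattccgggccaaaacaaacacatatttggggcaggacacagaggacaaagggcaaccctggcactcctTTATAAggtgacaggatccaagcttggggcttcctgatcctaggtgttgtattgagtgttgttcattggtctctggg
Cyp2d10 promoter, chr15:82407145-82407444, minus strand: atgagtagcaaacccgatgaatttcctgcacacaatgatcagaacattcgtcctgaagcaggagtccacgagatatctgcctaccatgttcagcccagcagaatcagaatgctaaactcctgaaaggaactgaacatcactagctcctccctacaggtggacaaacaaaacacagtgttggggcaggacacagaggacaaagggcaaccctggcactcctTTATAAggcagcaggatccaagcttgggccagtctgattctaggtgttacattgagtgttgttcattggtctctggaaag
Cyp2j5 promoter, chr4:96664070-96664369, minus strand: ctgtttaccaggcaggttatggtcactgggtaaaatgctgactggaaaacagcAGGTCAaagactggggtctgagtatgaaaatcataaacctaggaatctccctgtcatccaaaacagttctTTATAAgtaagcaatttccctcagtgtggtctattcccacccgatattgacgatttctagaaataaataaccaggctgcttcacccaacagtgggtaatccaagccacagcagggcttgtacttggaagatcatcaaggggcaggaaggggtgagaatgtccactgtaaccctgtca
Cyp3a11 promoter, chr5:145879805-145880104, minus strand: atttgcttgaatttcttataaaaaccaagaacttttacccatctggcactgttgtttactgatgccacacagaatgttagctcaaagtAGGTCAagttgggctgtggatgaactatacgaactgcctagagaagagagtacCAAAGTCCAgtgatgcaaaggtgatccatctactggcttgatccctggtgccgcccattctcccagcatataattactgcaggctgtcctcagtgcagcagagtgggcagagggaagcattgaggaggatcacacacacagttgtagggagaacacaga
Por promoter, chr5:135688895-135689194, plus strand: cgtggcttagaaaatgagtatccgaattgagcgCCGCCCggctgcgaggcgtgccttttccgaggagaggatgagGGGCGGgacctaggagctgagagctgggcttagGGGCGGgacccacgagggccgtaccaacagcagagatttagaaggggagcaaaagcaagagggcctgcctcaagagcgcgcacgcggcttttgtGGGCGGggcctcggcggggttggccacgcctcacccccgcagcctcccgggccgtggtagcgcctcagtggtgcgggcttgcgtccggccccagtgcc

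Cyp2d9 and Cyp2d10 had 252 identical bases in these windows (82.9% of the alignment), while no other pair passed 53.7%. Searched on both strands, TATAA was found in 6 of the 9 promoters (Cyp2d9, Cyp2d10, Cyp2d26, Cyp2j5, Cyp3a11 and Cyp3a25) and in 24.9% of 32851 promoters. AGGTCA was found in Cyp2j5, Cyp3a11 and Cyp3a25 (16.3% of all promoters), CAAAGTCCA in Cyp3a11 (0.5%), GGGCGG in Cyp2j6, Cyp3a11 and Por (35.7%) and CACGTG, the E-box read by MYC and by clock factors, in Cyp2j6 (7.2%). TTCNNNGAA, a STAT-type site (8.3% of all promoters), and an everted repeat of the PXR type (0%) were in none of the 9. The Por promoter was 67.3% G and C, against 45.3% to 50.3% in the 8 P450 promoters and a median of 52.7% over all promoters. These matches describe the letters of the windows and nothing more.

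The first comparison set mixed-strain Het against WT tumors and asks what goes with loss of a single Arid1a copy. All 10 had a log2 fold change below 0, against 43.9% of the 17552 genes, and the median was -1.90 against 0.046 over all genes. None passed an adjusted p of 0.05 (limma, Benjamini-Hochberg over all genes; 0.16% of genes passed), with adjusted p-values from 0.125 to 0.326. At an unadjusted p under 0.05, 9 of the 10 were lower, against 7.5% of genes. The members varied together over the 16 libraries, so these counts are not counts of separate results. Pearson's r between 2 members ran from 0.38 (Cyp2d26 and Cyp2j6) to 0.96 (Cyp2d9 and Cyp2d10). The groups overlapped for every member, and 0.0798% of genes were lower without overlap. Without WT 2 and Het 5 all 10 were still below 0 and the median was -1.52. Without Het 6 alone all 10 were below 0 as well, with a median of -1.61.

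**Figure D1:**
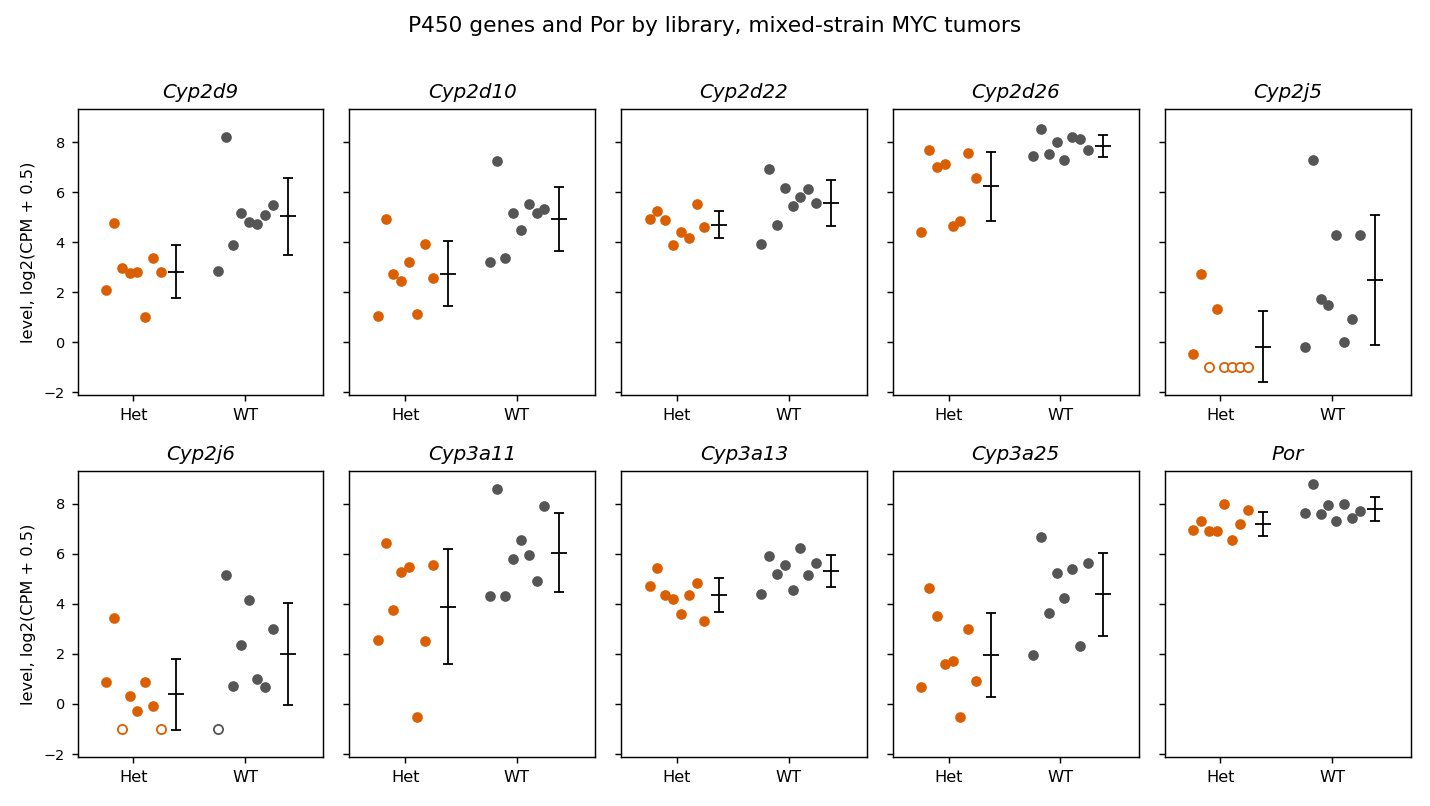
Level of each gene, log2(CPM + 0.5), in the 8 mixed-strain Het and 8 WT tumors. Points are libraries, open points are libraries with 0 reads, and bars are mean and SD. Cyp2j5 has 5 open points in Het tumors and 0 in WT, and WT 2 is the highest point of the WT group for most genes.

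Cyp2j5, the arachidonic acid epoxygenase, had 0 reads in 5 of 8 Het tumors (3, 5, 6, 7 and 8) and 0.223, 1.99 and 6.11 CPM in Het 1, 4 and 2. In WT tumors its lowest value was 0.376 CPM (a single read, WT 1), its median 2.58 CPM and its highest 155.5 CPM, in WT 2. With 3 reads as the limit that a count of 0 allows, counting error only, the 5 empty Het libraries could hold up to 0.568 to 0.932 CPM, limits above the levels of WT 1 and WT 6 (0.505 CPM). The log2 fold change was -2.66 ± 0.93 SE (adjusted p = 0.201) and was -1.86 without WT 2 and Het 5. Cyp2j6, a paralog that is also strong in the gut, had 0 reads in 2 of 8 Het and 1 of 8 WT tumors. It ran from 0 to 10.2 CPM in Het tumors (median 0.593) and from 0 to 35.3 CPM in WT tumors (median 3.08), with a log2 fold change of -1.62 ± 0.79 SE (adjusted p = 0.326). It is the member whose unadjusted p of 0.0546 exceeded 0.05.

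In the Cyp2d array, Cyp2d9, a testosterone 16-alpha hydroxylase that is higher in male liver, ran from 1.51 to 27.1 CPM in Het tumors (median 6.52) and from 6.78 to 295.1 CPM in WT tumors (median 30.5). Its neighbour Cyp2d10 ran from 1.55 to 29.9 CPM in Het (median 5.74) and from 8.71 to 152.3 CPM in WT (median 35.6). For each, 5 of 8 Het tumors lay below every WT tumor. The log2 fold change was -2.21 ± 0.59 SE for Cyp2d9 (adjusted p = 0.128) and -2.19 ± 0.58 SE for Cyp2d10 (adjusted p = 0.125). Cyp2d10 passed without Het 2 (log2 fold change -2.50, limma adjusted p = 0.0439), the highest Het library for both genes.

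Cyp2d26, which has the highest level per kb of exon of the 9 P450 genes in these tumors (58.2 CPM per kb in Het and 133.8 in WT), split the Het group. Het 1, 5 and 6 had 20.9, 24.5 and 28.5 CPM, while the other 5 Het tumors had 94.7 to 206.9 CPM and the WT tumors 155.5 to 366.1 CPM (median 232.8). The log2 fold change was -1.61 ± 0.45 SE (adjusted p = 0.137), with 6 of 8 Het tumors below every WT tumor. Cyp2d22, a relative of the human drug-metabolizing CYP2D enzyme, ran from 14.5 to 45.9 CPM in Het (median 26.2) and from 14.7 to 120.1 CPM in WT tumors (median 50.6; -0.87 ± 0.34 SE, adjusted p = 0.246).

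Among the Cyp3a genes, Cyp3a11, the main PXR-inducible P450 of mouse liver, had the widest range. It ran from 0.189 CPM (1 read, Het 6) to 86.4 CPM in Het tumors, with a median of 25.5, and from 19.3 to 387.0 CPM in WT tumors, with a median of 58.8. Of the Het tumors, 4 of 8 lay below every WT tumor (log2 fold change -2.17 ± 0.87 SE, adjusted p = 0.251). Cyp3a25, a Cyp3a gene of adult liver, ran from 0.189 to 24.1 CPM in Het (median 2.63) and from 3.41 to 103.0 CPM in WT tumors (median 27.7), with a log2 fold change of -2.45 ± 0.74 SE (adjusted p = 0.157). Cyp3a13, which is made in both gut and liver and shares no 50-base stretch with another gene, ran from 9.34 to 43.0 CPM in Het (median 19.9) and from 20.4 to 75.6 CPM in WT tumors (median 41.4; -0.98 ± 0.31 SE, adjusted p = 0.162).

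Por ran from 93.4 to 253.2 CPM in Het tumors (median 133.8) and from 156.6 to 444.7 CPM in WT tumors (median 202.7). In 5 of 8 Het tumors it lay below every WT tumor, with a log2 fold change of -0.60 ± 0.21 SE (adjusted p = 0.212; 95% interval -1.05 to -0.15). The 2 Het libraries with the most Por, Het 5 (253.2 CPM) and Het 8 (214.3 CPM), were not those with the most P450 RNA. The 9 P450 genes summed to 119.4 CPM in Het 5 and 187.6 CPM in Het 8, and to 470.8 CPM in Het 2. Over the groups the sum ran from 71.0 to 470.8 CPM in Het (median 200.7) and from 247.5 to 1674 CPM in WT tumors (median 516.9), and its ratio to Por had a median of 1.32 in Het and 2.54 in WT. Within each genotype, Por and each P450 were compared over the 8 tumors in 18 relations. Pearson's r ran from -0.49 (Cyp3a13) to 0.70 (Cyp3a11) in Het and from 0.47 (Cyp2j6) to 0.78 (Cyp2d26) in WT tumors, and 0 of 18 passed after Benjamini-Hochberg adjustment (exact permutation tests, two-sided; lowest adjusted p = 0.189 for Pearson's r and 0.259 for Spearman's rho). For Cyp2d26 in WT tumors Spearman's rho was 0.74 (unadjusted exact p = 0.0458, and p = 0.0138 for r), and r dropped to 0.39 without WT 2 and WT 5. For Cyp3a11 in Het tumors rho was 0.67 (unadjusted exact p = 0.0831, and p = 0.0557 for r), and r was 0.75 without Het 5 and Het 8. The 2 tumors left out of each group were those with Por farthest from the group median, and r without them was not tested. In Het tumors r then rose for each P450 gene. It was 0.78 for Cyp3a13, 0.69 for Cyp2d26 (-0.02 with them), 0.94 for Cyp2d9 (0.43 with them) and 0.40 for Cyp2j6 (-0.21 with them). In WT tumors r fell for each P450 gene but Cyp3a25 (0.72 to 0.77). It was 0.25 for Cyp2d9 (0.76 with them), 0.43 for Cyp2d10 (0.76), 0.29 for Cyp2d22 (0.59) and -0.07 for Cyp2j5 (0.51).

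**Figure D2:**
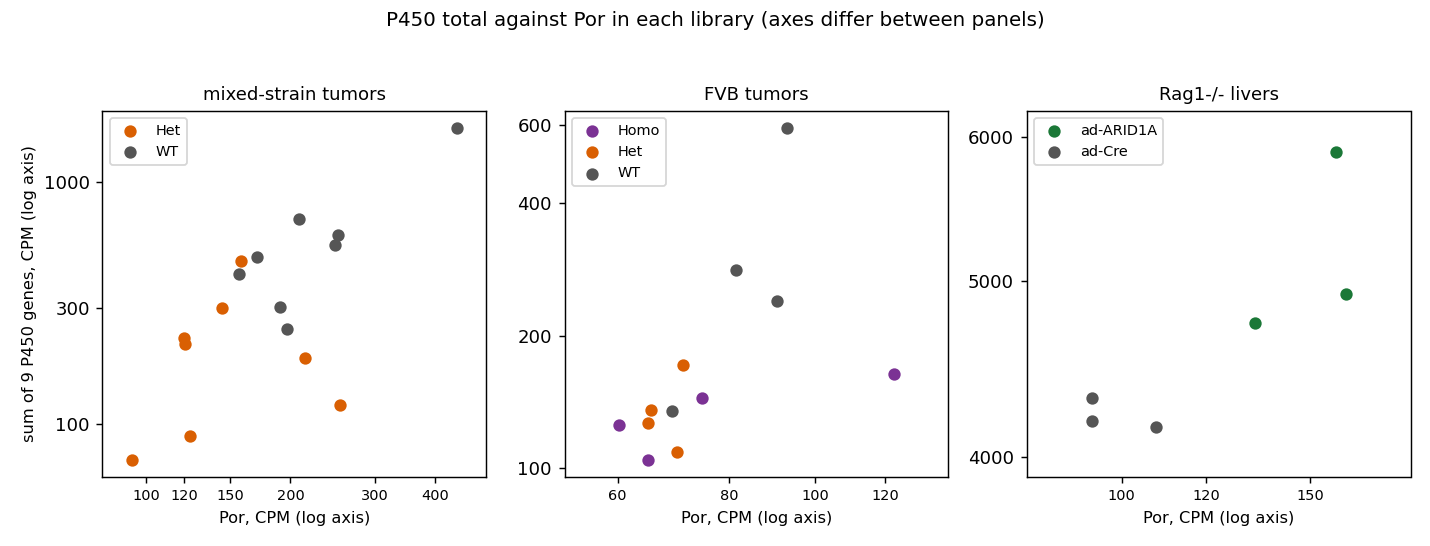
Sum of the 9 P450 genes (CPM, vertical log axis) against Por (CPM, horizontal log axis); each point is a library, each of the 3 panels a table with its own axis ranges. WT 2 of the mixed strain (1674 CPM of P450, 444.7 CPM of Por) lies far from the other tumors, and the ad-ARID1A livers lie above and to the right of the ad-Cre livers.

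No marker of another cell type passed in mixed-strain Het tumors, but several lists leaned the same way as the P450 genes, and their part in the P450 differences was not tested. Of 12 endothelial markers 10 were below 0 (median log2 fold change -1.18, 7 at an unadjusted p under 0.05), with summed medians of 328.1 CPM in Het (161.8 to 479.7) and 429.8 CPM in WT tumors (251.7 to 746.3). Below 0 were also 11 of 13 stellate and fibroblast markers (median -0.62; 608.4 CPM in Het and 761.8 CPM in WT, summed medians) and 8 of 8 erythroid markers (median -0.92; 36.8 CPM in Het and 87.6 CPM in WT). All 11 neutrophil markers measured were below 0 (median -1.72), and summed over the 12 in the table the level was 6.06 to 62.1 CPM in Het (median 8.93) and 16.5 to 207.9 CPM in WT tumors (median 50.5). Macrophage markers (12 genes) had a median of 1004 CPM in Het and 1031 CPM in WT. The 14 hepatocyte markers found, summed, had a median of 6498 CPM in Het (3197 to 7012) and 7168 CPM in WT tumors (5865 to 13750). Taken singly, all 14 hepatocyte markers were below 0 (median log2 fold change -0.35, 5 at an unadjusted p under 0.05), and 0 passed. Intestine and kidney also make Cyp2j, Cyp2d and Cyp3a enzymes. Summed, 8 intestinal genes had a median of 21.8 CPM in Het and 21.1 CPM in WT tumors. For 8 kidney tubule genes it was 118.2 CPM in Het and 68.1 CPM in WT tumors. Taken singly, 2 of 4 intestinal genes measured were below 0 (median log2 fold change 0.1), as were 2 of 3 kidney tubule genes (median -0.35).

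In the inbred FVB strain the same genotypes were compared, with Homo tumors added. In Het against WT tumors all 10 members had a log2 fold change below 0 (47% of 16140 genes), with a median of -1.23 against 0.02 over all genes. None passed (limma adjusted p from 0.0730 to 0.780; 0.0248% of genes passed), and 5 were lower at an unadjusted p under 0.05, against 6.07% of genes. Cyp2j5 alone had groups that did not overlap, as had 2.47% of genes in this direction. Homo tumors were set against the same WT tumors, so the 2 comparisons share their WT libraries. There 9 of 10 members were below 0 (53% of genes), with a median of -1.44 against -0.018. Cyp2j5 passed (0.0434% of genes did). At an unadjusted p under 0.05, 6 P450 genes were lower (5.64% of genes) and Cyp3a13 was higher (4.37% of genes), and Cyp2d9, Cyp2j5, Cyp2j6 and Cyp3a11 were lower without overlap (1.98% of genes).

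**Figure D3:**
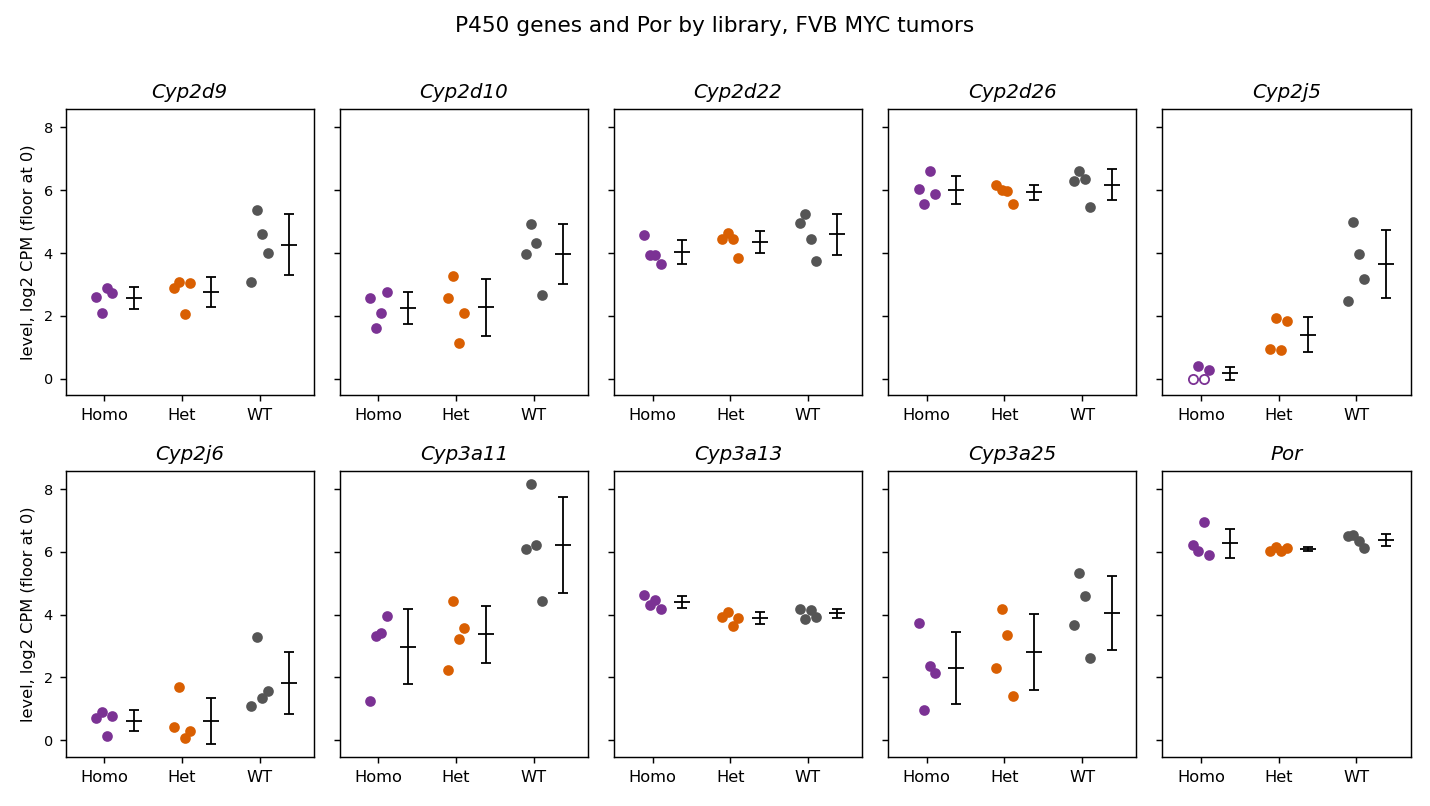
Level of each gene, log2 CPM, in the 4 FVB Homo, 4 Het and 4 WT tumors. Points are libraries, open points are values listed at 0 (1 CPM or less), and bars are mean and SD. The Cyp2j5 points of the 3 genotypes do not overlap, with 2 Homo libraries on the floor, while Cyp2d26, Cyp3a13 and Por stay near the same height.

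Cyp2j5 fell in FVB Homo tumors. It was listed at 0 in Homo 1 and 3 and was at 1.31 and 1.21 CPM in Homo 2 and 4, against 5.50, 31.8, 15.8 and 9.06 CPM in WT 1 to 4. The 4 Homo tumors lay below all 4 WT tumors, with a log2 fold change of -3.49 ± 0.45 SE (limma adjusted p = 0.0297; 95% interval -4.46 to -2.52), which the floor at 1 CPM understates. Het tumors stood between, at 1.93, 3.78, 1.88 and 3.56 CPM (log2 fold change against WT -2.25 ± 0.45 SE, adjusted p = 0.0730). Homo tumors were below all Het tumors as well (-1.24 ± 0.45 SE, unadjusted p = 0.0162), but the adjusted p of that difference was 1. The Homo call was lost without WT 2 (adjusted p = 0.0613), WT 3 (0.110), Homo 1 (0.165), Homo 2 (0.0780) or Homo 4 (0.0560), when the Homo and WT groups were fitted alone (0.222) and with the level of Y-linked genes as a covariate (0.0885). It held without WT 1 and WT 2 together (-3.42, adjusted p = 0.0260). Without WT 1, WT 4 or Het 4 the Het difference passed too (adjusted p = 0.0441, 0.0399 and 0.0451).

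Cyp3a11 had the other large FVB difference. It was at 2.40, 10.1, 10.6 and 15.5 CPM in Homo tumors and at 4.76, 21.7, 9.25 and 12.04 CPM in Het tumors, against 67.7, 288.0, 74.0 and 21.4 CPM in WT tumors. All Homo tumors lay below all WT tumors, and of the Het tumors Het 2 alone overlapped the lowest, WT 4. The log2 fold changes against WT were -3.24 ± 0.72 SE for Homo (adjusted p = 0.149) and -2.85 ± 0.72 SE for Het (adjusted p = 0.113). Without WT 4 both passed (adjusted p = 0.0498 for Homo and 0.0377 for Het). Cyp3a25 was at 13.4, 1.96, 5.13 and 4.41 CPM in Homo, at 4.93, 18.0, 10.1 and 2.68 CPM in Het and at 12.8, 40.5, 23.9 and 6.11 CPM in WT tumors. Its groups overlapped, and the log2 fold change against WT was -1.75 ± 0.69 SE for Homo (adjusted p = 0.416) and -1.25 ± 0.69 SE for Het (adjusted p = 0.457).

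Cyp2d9 was at 6.06, 4.26, 7.41 and 6.64 CPM in Homo tumors and at 7.46, 8.46, 4.17 and 8.23 CPM in Het tumors, against 8.40, 41.6, 24.3 and 16.1 CPM in WT tumors. Cyp2d10 was at 5.90, 3.05, 4.23 and 6.73 CPM in Homo and at 5.98, 9.65, 2.19 and 4.23 CPM in Het, against 15.8, 30.1, 20.1 and 6.36 CPM in WT tumors. WT 1 was the lowest WT library for Cyp2d9 and WT 4 for Cyp2d10. The log2 fold changes against WT were -1.69 ± 0.41 SE (Homo) and -1.50 ± 0.41 SE (Het) for Cyp2d9, and -1.72 ± 0.49 SE (Homo) and -1.71 ± 0.49 SE (Het) for Cyp2d10, with adjusted p-values from 0.134 to 0.248. Cyp2d9 passed in Homo tumors without WT 1 (adjusted p = 0.0417), and Cyp2d10 passed in Het tumors without WT 4 (adjusted p = 0.0440). Cyp2j6 was at 1.10 to 1.85 CPM in Homo, 1.04 to 3.25 CPM in Het and 2.11 to 9.71 CPM in WT tumors, close to the floor (-1.20 and -1.21 against WT, ± 0.47 SE, adjusted p = 0.408 and 0.260).

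Cyp2d26, Cyp2d22, Cyp3a13 and Por had small differences in FVB. Cyp2d26 was at 66.3, 46.9, 97.7 and 58.5 CPM in Homo tumors, 71.5, 64.0, 63.6 and 47.5 CPM in Het tumors and 78.3, 98.4, 81.6 and 44.0 CPM in WT tumors. The 95% intervals of its log2 fold change were -0.70 to 0.38 for Homo and -0.79 to 0.29 for Het, and the Het interval overlaps that of mixed-strain Het tumors (-2.56 to -0.67). Cyp2d22 was at 12.6 to 23.9 CPM in Homo, 14.3 to 25.1 CPM in Het and 13.6 to 38.1 CPM in WT tumors (-0.57 ± 0.30 SE and -0.25 ± 0.30 SE against WT, adjusted p = 0.561 and 0.780). Without WT 1 and WT 2 the Het estimates of Cyp2d22 and Cyp2d26 changed sign (0.25 and 0.025), so that 8 of 10 members were below 0 in Het tumors (median -0.82) and 7 of 10 in Homo tumors (median -1.05). Whether a gene's difference varied between the strains was not tested, and the tables were normalized separately.

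Cyp3a13 took the opposite sign in Homo tumors. It was at 24.8, 19.7, 22.3 and 18.1 CPM in Homo, at 15.4, 17.0, 12.5 and 14.8 CPM in Het and at 18.3, 14.6, 17.8 and 15.4 CPM in WT tumors. Of the Homo libraries 3 lay above all WT libraries and all 4 lay above all Het libraries. The log2 fold change was 0.36 ± 0.16 SE against WT (adjusted p = 0.475) and 0.51 ± 0.16 SE against Het (unadjusted p = 0.00683, adjusted p = 1). In the Homo against Het comparison 6 of 10 members were below 0 (58% of genes), with a median of -0.10. There 0 of 10 members and 0 of 16140 genes passed (limma; 623 genes, 3.86%, had an unadjusted p under 0.05), and Cyp2j5 and Cyp3a13 were the 2 members at an unadjusted p under 0.05. Non-overlap was seen for 1.75% of genes in the lower and 0.923% in the higher direction.

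Por was at 74.5, 64.9, 122.8 and 60.1 CPM in FVB Homo tumors, 65.3, 71.0, 64.9 and 70.0 CPM in Het tumors and 90.5, 93.1, 81.6 and 69.1 CPM in WT tumors. Its differences from WT were -0.10 ± 0.19 SE for Homo (adjusted p = 0.905) and -0.29 ± 0.19 SE for Het (adjusted p = 0.530), with 95% intervals of -0.50 to 0.30 and -0.69 to 0.11. The 9 P450 genes summed to 104.3 to 163.9 CPM in Homo (median 134.9), 108.6 to 171.0 CPM in Het (median 131.0) and 135.0 to 592.8 CPM in WT tumors (median 260.6). Their make-up also varied. Cyp2d26 made 46.3% of the sum in Homo, 47.0% in Het and 30.8% in WT tumors (medians), and Cyp3a11 made 8.04%, 9.20% and 27.3% in the same 3 groups.

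No erythroid, neutrophil or endothelial marker passed in FVB tumors, and the part of other cells in the P450 differences was not tested. All 8 erythroid markers were below 0 in Homo (median log2 fold change -1.16) and in Het tumors (-2.23), as were 11 of 12 endothelial markers (-0.52 in Homo and -0.51 in Het), whose sum had medians of 182.4 CPM in Homo, 189.3 CPM in Het and 247.9 CPM in WT tumors. Summed over 8 erythroid markers found in the table, the median was 45.9 CPM in Homo (27.8 to 103.0), 24.9 CPM in Het (23.3 to 26.2) and 279.6 CPM in WT tumors (21.2 to 520.9). Of 11 neutrophil markers 10 were at 0 in every Het library, and the median sum was 5.88 CPM in Homo (1.80 to 184.7), 0 in Het and 35.3 CPM in WT tumors (2.53 to 131.7). The 3 B and plasma cell markers in the table summed to 6.65 to 21.7 CPM in Homo, 3.997 to 9.62 CPM in Het and 2.56 to 4.74 CPM in WT tumors, and Igkc, an antibody light chain gene, rose in Homo tumors (2.44 ± 0.36 SE, limma adjusted p = 0.0297). Lrat, a stellate cell gene, fell in Het tumors (-2.50 ± 0.31 SE, limma adjusted p = 0.0234), while the summed 13 stellate and fibroblast markers overlapped (medians of 426.2 CPM in Homo, 628.9 CPM in Het and 754.7 CPM in WT). The sum of 14 hepatocyte markers overlapped between the genotypes (medians of 10900 CPM in Homo, 10140 CPM in Het and 11020 CPM in WT). Kidney tubule also makes Cyp2j5, and 2 of its 8 markers were in the table. Their sum had a median of 126.1 CPM in Homo (16.1 to 272.2), 212.2 CPM in Het (107.6 to 305.6) and 18.3 CPM in WT tumors (11.2 to 70.25).

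**Figure D4:**
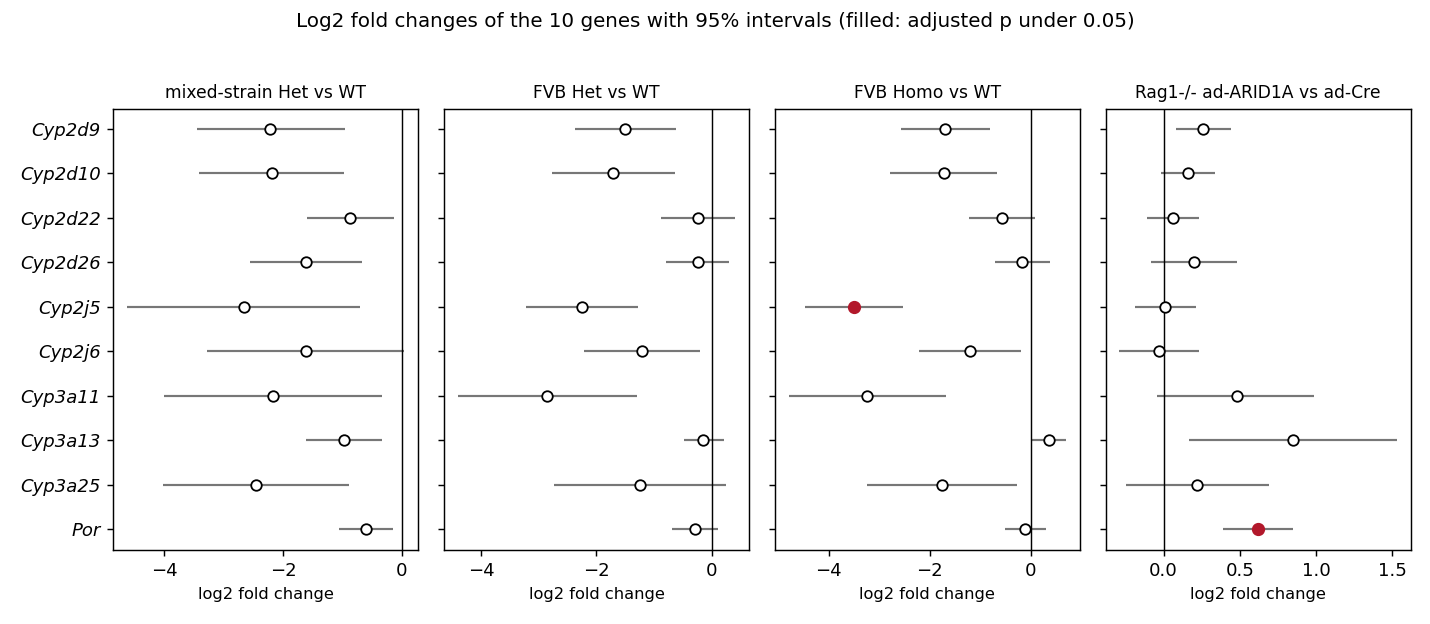
Log2 fold change of each gene (points) with 95% intervals (lines) in 4 comparisons, each with its own axis range; filled red points have an adjusted p under 0.05. The P450 intervals of the mixed-strain and FVB Het comparisons lie mostly left of 0, Cyp2j5 is filled in FVB Homo tumors (-3.49) and Por is filled in ad-ARID1A livers (0.62).

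The last comparison asks what added ARID1A changes in livers that carry the MYC transgenes. The mouse gene Arid1a, which is no check of the human transgene, was at 149.1, 125.4 and 110.7 CPM in ad-ARID1A and 114.6, 116.2 and 113.8 CPM in ad-Cre livers, and these overlapped. Por rose, at 158.7, 162.0 and 133.4 CPM in ad-ARID1A livers against 93.7, 107.6 and 93.7 CPM in ad-Cre livers. All 3 ad-ARID1A livers lay above all ad-Cre livers, with a log2 fold change of 0.62 ± 0.10 SE (limma adjusted p = 0.0465; 95% interval 0.39 to 0.85). It was the sole member to pass, and 0.32% of the 14074 genes passed. The call was lost without any single library (adjusted p from 0.0660 to 0.249, log2 fold change 0.57 to 0.71) and with median centring of each library (0.53, adjusted p = 0.106). It was also lost with quantile normalization (adjusted p = 0.0770), a filter at a mean log2 CPM of 2 (0.0586), log2(CPM + 1) values (0.0620) and the Y-linked level as a covariate (0.135).

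**Figure D5:**
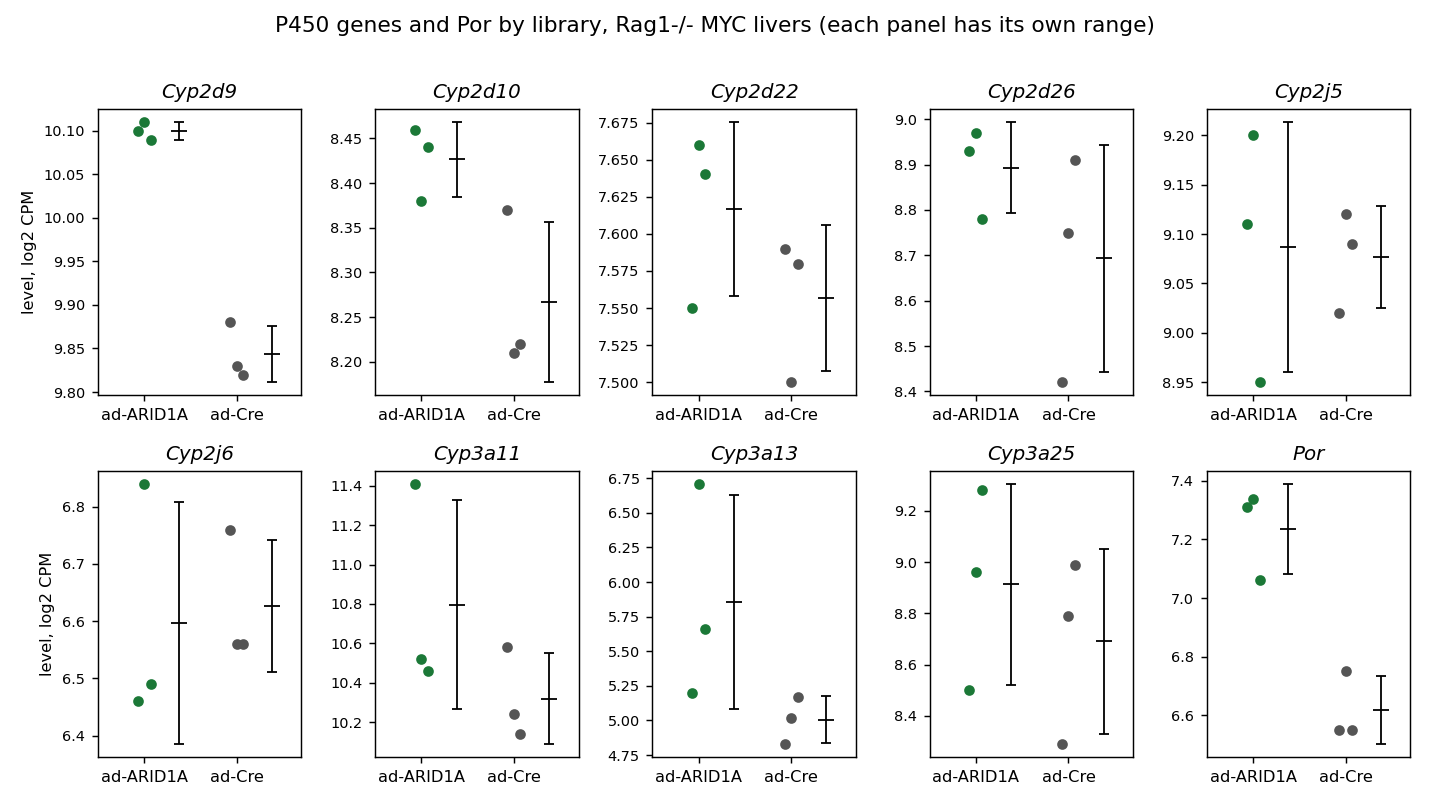
Level of each gene, log2 CPM, in the 3 ad-ARID1A and 3 ad-Cre livers. Each panel has its own range, points are libraries and bars are mean and SD. Cyp2d9, Cyp2d10, Cyp3a13 and Por do not overlap between the groups, and the Cyp2j5 and Cyp2j6 points are mixed.

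No P450 gene passed in these livers. Of the 10 members 9 had a log2 fold change above 0, against 66.3% of genes, with a median of 0.21 against 0.09 over all genes. With median centring 7 of 10 were above 0 (median 0.12), and Cyp2d22 and Cyp2j5 changed sign. Cyp2d9, Cyp3a13 and Por were higher at an unadjusted p under 0.05 (9.88% of genes), and those 3 and Cyp2d10 did not overlap (13.9% of genes). Cyp2d9 was at 1097, 1105 and 1090 CPM in ad-ARID1A and 942.3, 910.2 and 903.9 CPM in ad-Cre livers, a log2 fold change of 0.26 ± 0.08 SE (adjusted p = 0.241). Cyp2d10 was at 352.1, 333.1 and 347.3 CPM in ad-ARID1A and 330.8, 296.1 and 298.2 CPM in ad-Cre livers (0.16 ± 0.08 SE, adjusted p = 0.452). Cyp3a13 was at 36.8, 104.7 and 50.6 CPM in ad-ARID1A and 28.4, 32.5 and 36.0 CPM in ad-Cre livers, a wide spread that rests on ad-ARID1A 2 (0.85 ± 0.31 SE, adjusted p = 0.304, and 0.42 without that liver).

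Cyp3a11 was at 2721, 1468 and 1409 CPM in ad-ARID1A livers and at 1531, 1209 and 1128 CPM in ad-Cre livers, where ad-ARID1A 1 alone lay above all ad-Cre livers (0.48 ± 0.23 SE, adjusted p = 0.438, and 0.17 without it). Cyp3a25 was at 362.0, 498.0 and 621.7 CPM in ad-ARID1A and 313.0, 442.6 and 508.5 CPM in ad-Cre livers (0.22 ± 0.21 SE, adjusted p = 0.709). Cyp2j5, the member that fell in FVB Homo tumors, was at 552.6, 588.1 and 494.6 CPM in ad-ARID1A and 519.1, 556.4 and 545.0 CPM in ad-Cre livers. Its log2 fold change was 0.01 ± 0.09 SE (adjusted p = 0.977), with a 95% interval of -0.19 to 0.21. Cyp2j6 gave -0.03 (95% interval -0.29 to 0.23), Cyp2d22 0.06 (-0.11 to 0.23) and Cyp2d26 0.20 (-0.08 to 0.48). The 9 P450 genes summed to 4741 to 5885 CPM in ad-ARID1A (median 4916) and 4153 to 4308 CPM in ad-Cre livers (median 4187), and their ratio to Por had a median of 35.5 in ad-ARID1A and 44.7 in ad-Cre livers. The 13 stellate and fibroblast markers, summed, had medians of 588.2 CPM in ad-ARID1A (563.2 to 665.9) and 385.1 CPM in ad-Cre livers (330.2 to 598.6), and 11 of 12 endothelial markers were above 0 (median log2 fold change 0.22; 576.0 CPM in ad-ARID1A and 528.3 CPM in ad-Cre livers, summed medians). The mouse gene Myc was at 14.7, 6.32 and 5.32 CPM in ad-ARID1A and 32.0, 15.2 and 18.6 CPM in ad-Cre livers, without overlap. The part of these in the Por result was not tested.

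Levels between genes were compared per kb of exon within a group. The length was that of all annotated GENCODE exons of a gene joined, and the transcripts made in these tissues may be shorter. It was 5.09 kb for Cyp3a11, 2.66 kb for Cyp2d9 and 1.79 kb for Cyp2d26, and the order of genes depends on it. In ad-Cre livers Cyp2d9 led with 345.7 ± 7.75 CPM per kb (SD, n = 3), while Cyp3a11 had the higher mean CPM (1289 against 918.8 for Cyp2d9). Cyp3a11 (253.2 ± 41.8), Cyp2d26 (233.3 ± 39.1), Cyp2j5 (230.4 ± 8.14) and Cyp3a25 (202.3 ± 47.8) followed and did not differ beyond their spread, and Cyp2d10 was at 187.1 ± 11.8. Cyp2d22 (48.2 ± 1.63), Cyp2j6 (27.5 ± 2.25), Por (24.5 ± 2.001) and Cyp3a13 (10.9 ± 1.28) were lowest. In the tumors the order was different. In mixed-strain WT tumors Cyp2d26 (133.8 ± 40.5 CPM per kb, n = 8) and Por (58.0 ± 22.8) led, Cyp2j6 (2.37 ± 3.38) was last, and the SDs of the 7 genes between them (10.7 to 26.4) overlapped. These are means. By median, Cyp2j5 was at 1.10 CPM per kb, near Cyp2j6 at 0.854. In FVB WT tumors Cyp2d26 (42.2 ± 12.7 CPM per kb, n = 4) was followed by Cyp3a11 (22.1 ± 23.4) and Por (20.8 ± 2.70), and Cyp2j6 (1.21 ± 0.998) was again last. By median, Por (21.4 CPM per kb) came before Cyp3a11 (13.9), whose mean includes 288.0 CPM in WT 2. The tables were normalized separately, so a level is not compared across them as a fold.

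The other genes of the pathway were described from lists by count and median. Beyond the members, 2 other Cyp2d and 4 other Cyp3a genes were measured in the mixed strain, all 6 below 0 in Het tumors. Cyp3a16, a Cyp3a gene known from fetal liver, had the smallest p (-2.35 ± 0.59 SE, adjusted p = 0.111) and was at 0 reads in 5 of 8 Het and 0 of 8 WT tumors, and Cyp3a57 was at -1.24 ± 0.43 SE (adjusted p = 0.194). In FVB, the pseudogene Cyp2d37-ps was at -1.10 in Homo and -1.03 in Het tumors (± 0.29 SE, adjusted p = 0.196 and 0.137), and Cyp3a59 at -0.29 and -0.55 (± 0.37 SE). After ad-ARID1A, Cyp2d37-ps was at 0.34 and Cyp2d40 at -0.43, and the one other Cyp2j gene measured, Cyp2j9, was at 0.29 (adjusted p = 0.241, 0.263 and 0.670).

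The 9 genes measured of other electron transfer proteins had medians near the background in the tumors. Their median log2 fold change was -0.04 in mixed-strain Het (3 higher, 6 lower), -0.07 in FVB Homo and 0.02 in FVB Het tumors. Of the 9, 0 passed. At an unadjusted p under 0.05 were 3 in mixed-strain Het tumors (2772 of all 17552 genes). In FVB there were 1 in Homo (1617 of 16140) and 2 in Het tumors (2293 of 16140). Cyb5a, cytochrome b5, the helper of several P450s, was at -0.33 ± 0.15 SE for mixed-strain Het, -0.20 ± 0.12 SE for FVB Homo, -0.27 ± 0.12 SE for FVB Het and 0.34 ± 0.08 SE in ad-ARID1A livers (adjusted p = 0.297, 0.635, 0.318 and 0.136). The mixed-strain gene of smallest p was the reductase Cyb5r1 (0.53 ± 0.17 SE, adjusted p = 0.164), and in FVB it was the mitochondrial outer membrane cytochrome Cyb5b (-0.35 in Homo and -0.45 in Het, ± 0.14 SE). After ad-ARID1A the list, which does not hold Por, had a median of 0.02, and 0 of its 9 genes passed. Pgrmc1, a heme-binding partner of P450s, was at 0.19 there (limma adjusted p = 0.417). Whether Por differed from these genes in its response was not tested, and its own call was lost without any single library.

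Of the 12 heme genes 0 passed, with medians of -0.03 in mixed-strain Het, -0.37 in FVB Homo and -0.31 in FVB Het tumors and 0.13 after ad-ARID1A. Alas1, the first and rate-limiting enzyme of liver heme synthesis, was at -0.49 ± 0.26 SE for mixed-strain Het, -0.51 ± 0.18 SE for FVB Homo, -0.35 ± 0.18 SE for FVB Het and -0.37 ± 0.11 SE in ad-ARID1A livers (adjusted p = 0.360, 0.344, 0.395 and 0.225). Fech, which inserts the iron, was at -0.96 in FVB Homo and -1.05 in FVB Het tumors (± 0.35 SE); it is also an erythroid gene. Of the 2 epoxide hydrolases measured, which open the epoxides that P450s form, Ephx1 was at -1.06 in FVB Homo and -0.96 in FVB Het tumors (± 0.31 SE, adjusted p = 0.253 and 0.181), and Ephx2 at -1.05 ± 0.38 SE in mixed-strain Het tumors (adjusted p = 0.213) and 0.42 ± 0.08 SE after ad-ARID1A (adjusted p = 0.0875).

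Among known regulators of these P450 genes, 19 of 22 were below 0 in mixed-strain Het tumors (median -0.27), while 16 of 21 were above 0 in FVB Homo (median 0.23) and in FVB Het tumors (median 0.26), with 0 passing. The smallest p belonged to Nr0b2, the corepressor SHP, in mixed-strain Het tumors (-2.55 ± 0.84 SE, adjusted p = 0.175), to Cux2, a female-biased repressor, in FVB Homo tumors (1.14 ± 0.26 SE, adjusted p = 0.150) and to Tef in FVB Het tumors (0.62 ± 0.16 SE, adjusted p = 0.113). Nr1i2, the PXR gene, was at -1.18 ± 0.46 SE for mixed-strain Het, 0.35 ± 0.63 SE for FVB Homo and 0.03 ± 0.63 SE for FVB Het (adjusted p = 0.241, 0.903 and 0.989). Hnf4a, the hepatocyte nuclear receptor, was at -0.01 ± 0.12 SE, 0.23 ± 0.14 SE and 0.40 ± 0.14 SE in the same 3 comparisons (adjusted p = 0.982, 0.619 and 0.217). After ad-ARID1A 4 of 21 regulators rose: the clock-controlled bZIP factors Dbp (1.97 ± 0.16 SE, adjusted p = 0.00234), Tef (1.03 ± 0.09 SE, adjusted p = 0.00234) and Hlf (0.51 ± 0.08 SE, adjusted p = 0.0376) and the clock repressor Nr1d1 (0.97 ± 0.15 SE, adjusted p = 0.0313). Nr1i2 was at 0.38 ± 0.11 SE there (adjusted p = 0.203). The bZIP factors are known regulators of Por and P450 rhythm in mouse liver, the labels used here give no hour of collection, and a part of these factors in the Por result was not tested.

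Because several members are sex-biased, lists of sex-biased liver genes were set beside them. In mixed-strain Het tumors the male-biased list was below 0 in 14 of 14 genes (median -1.03) and the female-biased list in 11 of 13 (median -1.08). In FVB tumors the male-biased list was below 0 in 9 of 11 genes in Homo (median -1.10) and 10 of 11 in Het tumors (median -1.25), while the female-biased list had medians of 0.26 and 0.14. None passed in the tumors. The smallest p of the male-biased list belonged to C6, a complement gene, in the mixed strain (-2.43 ± 0.76 SE, adjusted p = 0.164), to Slco1a1, an anion transporter, in FVB Homo tumors (-3.02 ± 0.70 SE, adjusted p = 0.156) and to Cyp2u1, another P450, in FVB Het tumors (-1.25 ± 0.28 SE, adjusted p = 0.0930). After ad-ARID1A the female-biased list was above 0 in 10 of 10 genes (median 1.10), and Cyp2b9 (3.28 ± 0.34 SE, adjusted p = 0.00589) and Cyp2a4 (3.66 ± 0.55 SE, adjusted p = 0.0313) rose. Cyp2b9 was listed at 0 in 2 of 3 ad-Cre livers and Cyp2a4 in 1 of 3, so these values depend on the floor. The male-biased list was below 0 in 12 of 15 genes there (median -0.29), Cyp2d9 was at 0.26, and Y-linked genes were at like levels in both groups (Uty at 61.4 to 64.0 CPM in ad-ARID1A and 53.5 to 63.1 CPM in ad-Cre livers).

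Genes with the most similar pattern were sought by Pearson's r over all libraries of a tumor table, as a description that includes the differences between genotypes. Over the 16 mixed-strain libraries Por was most like Cebpd (0.92), Lrg1 (0.92) and Rarres2 (0.90), while Cyp2j5 was most like Pon1 (0.97), Slco1a1 (0.97) and Cyp4f14 (0.96). Cyp2d10 was most like Serping1 (0.94), Cyp2d22 like Shpk (0.94), Cyp2j6 like Ugt2b36 (0.89), Cyp3a11 like Hp (0.92), Cyp3a13 like Prox1os (0.86) and Cyp3a25 like Hsd11b1 (0.93). Over the 12 FVB libraries Cyp2j5 was most like Dsc2 (0.97), Ugt2b1 (0.96) and Serpina3c (0.96), the last 2 of which were also among the first 3 of Cyp2d9, and Cyp3a11 like Acsm1, Uox and Ces1c (0.95 each). Por was most like Sil1 (0.93) there, and Cyp3a13 like 1700040L02Rik (0.89). No gene was in the first 3 of the same member in both tables.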

How the data were processed

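RNA was sequenced from 28 tumors and 6 livers. Per the submitters' processing notes, Trim Galore, HISAT2, SAMtools and featureCounts were used with GRCm38/mm10; their versions and the strand setting are not given, so antisense reads cannot be told apart. The authors deposited 3 tables of log2 values, each normalized separately. Per the file headers, the mixed-strain table holds log2 values named as RPKM; its steps are those of log2(CPM + 1), and it was read as such. The other 2 deposited tables hold log2 CPM and list at 0 every value of 1 CPM or less. Steps between low values were whole reads (tolerance 0.1 reads) and gave each library's depth; higher values are too coarsely rounded for a count test. The ad-ARID1A columns were matched by number to labels that use another prefix. The labels' treatment text words Het and Homo alike, so the genotype field was used.

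Each table was fitted alone in limma 3.58.1 (R 4.3.3) with a variance trend, two-sided, with Benjamini-Hochberg adjustment over all genes and a threshold of 0.05. The mixed-strain fit used log2(CPM + 0.5) for genes with a mean of at least 0.5 CPM, and FVB groups shared 1 fit. Fold changes of low genes are understated by the pseudocount and the floor. The fits were tested on simulated data. Exact permutation tests went through every order of the libraries of a group, with ranks from scipy 1.17.1. Alternatives were other pseudocounts, filters and scalings, array weights, a Y-linked covariate, the replicate number as a block, and each library left out; fits without the libraries that stood apart were added after seeing the data. Beside the 10 members, the text names list genes that passed or had the smallest p, some of the 3 genes most alike (the rest are not reported here), and the check genes. Cyb5a, Alas1, Nr1i2, Hnf4a and Myc are also given where the text names them, chosen after their values were seen. Members and lists were chosen with earlier results of these data known.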

Additional observations from a re-analysis of the deposited data

Results flagged for a closer look

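Of the 50 groups of 4 or more libraries tested over the 10 genes, 2 had a library far from the rest by Dixon's criterion, which chance alone meets in about 1 of 20 groups. Cyp2j6 in mixed-strain Het 2 was the highest of its group at 3.42 on the log2(CPM + 0.5) scale, with the next Het tumor at 0.87. Por in mixed-strain WT 2 was the highest of its group at 8.80 on the same scale, with the next WT tumor at 7.98. Het 2 and WT 2 were also the highest libraries of their groups for most of the other P450 genes.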

How the results depend on the processing

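Of 884 values of the members under an alternative, 816 kept their direction and their side of the threshold, 18 lost a call, 14 gained one and 36 changed sign. The count of genes called for mixed-strain Het tumors was 28, and it was 14 without a filter, 101 with array weights and 16 without WT 2 and Het 5. For FVB Het tumors it was 4, and it was 0 with a filter at a mean log2 CPM of 2 and with log2(CPM + 1) (1689 and 2274 genes at an unadjusted p under 0.05), 7 with median centring, 2 with quantile normalization, 48 with the Y-linked covariate, 2287 with array weights and 1 both with the 2 groups alone and without WT 1 and 2. For FVB Homo against WT it was 7, and it was 0 with that filter (1117 at an unadjusted p under 0.05), with the Y-linked covariate (1846) and with the 2 groups alone (1336), 3 with log2(CPM + 1) and without WT 1 and 2, and 21 with array weights. For ad-ARID1A it was 45 (39 higher, 6 lower), and it was 22 with quantile normalization, 13 with the Y-linked covariate and 34 with median centring (25 higher, 9 lower). Leaving out single libraries gave 8 to 138 (mixed strain), 0 to 256 (FVB Het), 0 to 36 (FVB Homo against WT), 0 to 3 (Homo against Het, 0 in the fit of all libraries) and 0 to 19 (ad-ARID1A). The causes were not tested. The filter at a mean log2 CPM of 2 left out Cyp2j5 and Cyp2j6 in FVB. Signs changed without WT 1 and 2 for Cyp2d22 (0.2475) and Cyp2d26 (0.025) in Het and for Cyp2d26 (0.115) and Por (0.0425) in Homo against WT. For Homo against Het they changed for Cyp2j6 (-0.01917 with log2(CPM + 1), -0.3545 with the Y-linked covariate), Cyp3a11 (0.1521, the same covariate), Cyp2d10 (0.0375 with median centring, 0.0225 with quantile normalization, 0.07065 with array weights) and Cyp2d26 (-0.07119 with array weights). For ad-ARID1A they changed for Cyp2d22 (-0.03) and Cyp2j5 (-0.08) with median centring, and for Cyp2j5 with quantile normalization (-0.001667) and the Y-linked covariate (-0.06831). Leaving out single libraries turned the sign within -0.325 to 0.01833 for Por in Homo against WT. For Homo against Het the ranges were -0.3933 to 0.32 for Cyp2d10, -0.1067 to 0.2467 for Cyp2d26, -0.1758 to 0.3708 for Cyp2j6, -0.7617 to 0.1875 for Cyp3a11 and -0.0325 to 0.3108 for Por. For ad-ARID1A they were -0.04667 to 0.07833 for Cyp2j5 and -0.1517 to 0.03833 for Cyp2j6. The labels give no pairing of the samples. Same-numbered libraries deviated together with correlations of -0.40 to 0.43, and some but not all libraries were most like their own number. Such correlations cannot show whether the numbers pair the samples. With the number as a replicate block 75 genes were called in mixed-strain Het, Cyp2d9 and Cyp2d10 among them (limma adjusted p = 0.0294 and 0.0335). The block gave 0 in FVB Het (2491 at an unadjusted p under 0.05), 1 in FVB Homo against WT and 59 after ad-ARID1A. Array weights brought Cyp2d9, Cyp2d10, Cyp2j5 and Cyp3a11 past the threshold in FVB Het tumors (limma adjusted p = 0.00804 to 0.0297). At the depth of the mixed-strain libraries 3 reads are worth 0.568 to 0.932 CPM in Het and 0.584 to 1.32 CPM in WT tumors, which limits low levels of Cyp2j5 and Cyp2j6.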
